A study of Mus musculus with 2 samples.

Results

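Semaphorins, plexins and neuropilins are the ligands and receptors of one axon guidance system, and their mRNA levels were compared between 2 areas of the embryonic mouse brain, the subventricular zone (SVZ) and the cortex. The set held 31 of the 24411 genes listed, chosen by gene symbol: 20 semaphorins, 9 plexins and 2 neuropilins, and every symbol was found. Both areas came from fresh-frozen brain at embryonic day 16.5, with no treatment named (strain, genotype and number of embryos are not given in the sources used), and were cut from haematoxylin and eosin stained cryosections by laser capture microdissection (LCM), in which a laser cuts chosen areas out of a section under the microscope. The SVZ, a germinal layer close to the lateral ventricle, and the cortex, which at this age holds mainly young neurons, gave 1 RNA-seq library each. The cuts served as a reference for a method that barcodes cDNA in tissue by light, and they followed the areas lit in that experiment. With 1 library per area there is no replicate check, and no p-value is given. Intervals of ratios below are exact 95% Clopper-Pearson intervals, and those of single CPM levels are exact 95% Poisson intervals. They cover counting error only. Reads without molecular identifiers can be PCR copies, so these intervals may be too narrow even for that error.

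Semaphorins share a large extracellular Sema domain. Class 3 members are secreted, classes 4, 5 and 6 span the membrane, and class 7 is held by a lipid (GPI) anchor. Plexins are the receptors that carry the signal across the membrane, through a cytoplasmic domain that acts on small GTPases and so on the cytoskeleton, whereas neuropilins bind most class 3 semaphorins at the surface and pass the signal on through plexins. In the developing forebrain the system steers cortical axons, radially migrating neurons, interneurons and blood vessels.

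Gene-assigned reads numbered 51435667 in the SVZ and 22050693 in the cortex. Levels are given as CPM, the reads of a gene per 1000000 gene-assigned reads of its library, so that 1 read stood for 0.0194 CPM in the SVZ and 0.0454 CPM in the cortex. Progenitor and neuron marker sums differed between the libraries in the direction of the area labels. The marker lists were picked when earlier results of these data were known, so this is not an independent check. Whether the SVZ cut took in neighbouring layers or choroid plexus was not tested. Summed CPM of 11 apical progenitor genes such as Pax6 and Fabp7 was 6924 in the SVZ and 145 in the cortex, that of 8 intermediate progenitor genes such as Eomes was 1537 and 219, and that of 10 neuron genes such as Tubb3 and Stmn2 was 1455 and 6748. Fabp7 alone made up 4973 CPM of the apical progenitor sum in the SVZ. Elavl4 alone made up 499 CPM of the intermediate progenitor sum in the SVZ and 166 CPM in the cortex, while Eomes was at 227 and 0.0907 CPM. Hopx and Neurog1 were at 0 in the cortex, and Nefl was at 0 in the SVZ. Genes were compared where their mean over both libraries was at least 1 CPM, which held for 12738 genes with a median log2 ratio (SVZ CPM over cortex CPM) of 0.11.

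Of the 31 genes, 27 reached that minimum. Of these, 8 (29.6%) were at least 2-fold higher in the SVZ, 8 (29.6%) were at least 2-fold higher in the cortex, and 11 lay within 2-fold. Among all 12738 genes the same thresholds were passed by 20.0% in the direction of the SVZ and 15.6% in that of the cortex. At 4-fold, 6 of the 27 genes were higher in the SVZ and 4 in the cortex, where 10.2% and 7.01% of all genes were. Because these are bulk samples, more cells that make an mRNA and more of that mRNA per cell cannot be told apart. The median log2 ratio of the 27 genes was -0.58, with 12 genes higher in the SVZ and 15 higher in the cortex, and no gene had a counting interval that included 0. Of all 12738 genes, 54.9% were higher in the SVZ, and 86.8% had an interval that did not include 0. The count on the cortex side depends on genes just under 2-fold: with upper-quartile scaling, which lowers every log2 ratio by 0.10, the split was 8 against 13, and the shares of all genes were 18.2% and 17.3%. The level of expression divided the set too: of the 11 genes with a mean between 1 and 10 CPM, 9 were higher in the cortex and 6 of these at least 2-fold, and 1, Nrp2, passed 2-fold in the SVZ. Of all 3711 genes between these limits, 23.7% were at least 2-fold higher in the cortex and 32.5% in the SVZ.

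Ligands and receptors are counted apart here, and the difference between them was not tested. Of 17 semaphorins at the minimum, 4 were at least 2-fold higher in the SVZ and 7 in the cortex, with a median log2 ratio of -0.99. Of 10 receptors at the minimum, 4 were at least 2-fold higher in the SVZ and 1 in the cortex, with a median of 0.40. These were 23.5% and 41.2% of the semaphorins and 40% and 10% of the receptors, where 20.0% and 15.6% of all genes were. Although more semaphorins were higher in the cortex, the CPM summed over all 20 was higher in the SVZ, at 566 against 214. The plexins as a sum were nearly level, at 872 and 812 CPM, and the neuropilins were at 512 and 159 CPM.

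**Figure D1:**
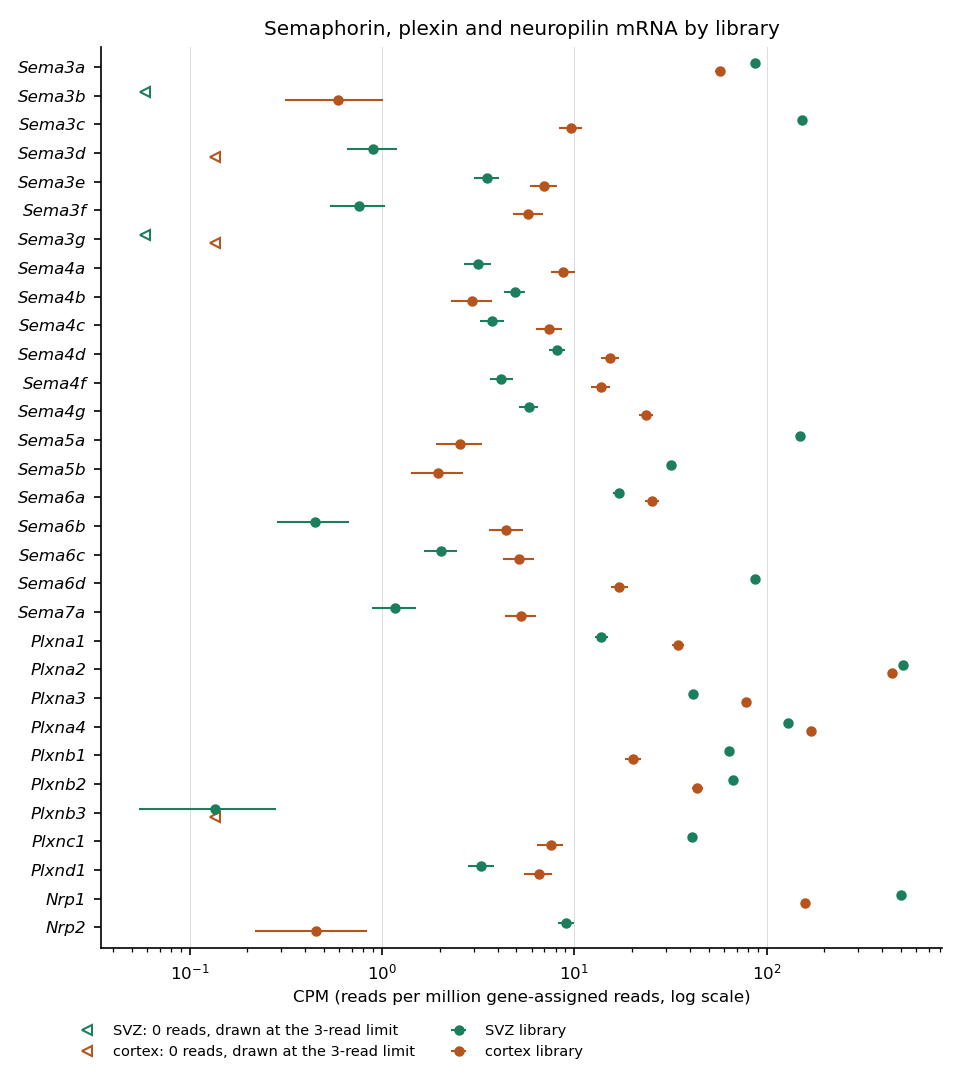
CPM of each of the 31 genes in the SVZ library (green) and the cortex library (orange) on a log axis, with exact 95% counting intervals as bars and open triangles at the 3-read limit where no read was counted. Sema3c and Sema5a are near 150 CPM in the SVZ and below 10 CPM in the cortex, whereas most class 4 semaphorins sit to the right in the cortex.

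The 5 promoters are shown here because they belong to the genes with the clearest differences among those with 1 start in the RefSeq promoter table: the top pair of semaphorins in each direction and the top receptor of the SVZ. Each run holds 300 bases, 250 before and 50 after the RefSeq transcription start, on GRCm38.p6, 5′ to 3′ on the gene's strand. In the GENCODE M21 annotation, Sema3c starts at 17574281 and Sema4g at 44989101. By those starts the Sema3c run lies wholly inside the gene and the Sema4g run almost wholly. Capitals mark matches, on either strand, to the E-box sequences CAGATG and CAGCTG, which are typical of proneural and other bHLH factors, to the T-box core TCACACC, and to the GC box GGGCGG bound by Sp1-type factors. Neighbouring GC boxes overlap and then form one run of capitals.
Sema5a promoter (chr15:32244563-32244862, plus strand): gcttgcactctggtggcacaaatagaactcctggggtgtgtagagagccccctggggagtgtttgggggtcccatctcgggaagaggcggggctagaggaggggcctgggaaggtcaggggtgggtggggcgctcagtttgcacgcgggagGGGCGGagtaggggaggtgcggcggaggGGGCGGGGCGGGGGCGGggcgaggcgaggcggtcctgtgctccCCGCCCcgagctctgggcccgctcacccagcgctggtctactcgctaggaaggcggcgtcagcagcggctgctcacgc
Sema3c promoter (chr5:17574566-17574865, plus strand): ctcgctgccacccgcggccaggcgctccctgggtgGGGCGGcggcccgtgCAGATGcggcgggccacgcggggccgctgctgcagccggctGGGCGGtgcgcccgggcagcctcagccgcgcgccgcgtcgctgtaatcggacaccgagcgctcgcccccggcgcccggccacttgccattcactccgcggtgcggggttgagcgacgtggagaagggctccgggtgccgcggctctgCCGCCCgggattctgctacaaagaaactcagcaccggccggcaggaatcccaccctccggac
Nrp2 promoter (chr1:62703067-62703366, plus strand): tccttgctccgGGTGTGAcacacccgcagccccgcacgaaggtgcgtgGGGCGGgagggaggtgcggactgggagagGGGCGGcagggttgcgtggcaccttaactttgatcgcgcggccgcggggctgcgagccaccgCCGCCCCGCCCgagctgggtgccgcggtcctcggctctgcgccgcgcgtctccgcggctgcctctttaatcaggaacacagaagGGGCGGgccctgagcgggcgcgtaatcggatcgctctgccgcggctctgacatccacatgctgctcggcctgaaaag
Sema4g promoter (chr19:44989094-44989393, plus strand): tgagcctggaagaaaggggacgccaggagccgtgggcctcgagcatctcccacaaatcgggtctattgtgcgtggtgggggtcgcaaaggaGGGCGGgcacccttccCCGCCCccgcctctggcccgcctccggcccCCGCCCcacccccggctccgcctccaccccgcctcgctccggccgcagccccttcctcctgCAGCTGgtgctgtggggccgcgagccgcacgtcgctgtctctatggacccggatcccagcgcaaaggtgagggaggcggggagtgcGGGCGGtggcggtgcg
Sema7a promoter (chr9:57939862-57940161, plus strand): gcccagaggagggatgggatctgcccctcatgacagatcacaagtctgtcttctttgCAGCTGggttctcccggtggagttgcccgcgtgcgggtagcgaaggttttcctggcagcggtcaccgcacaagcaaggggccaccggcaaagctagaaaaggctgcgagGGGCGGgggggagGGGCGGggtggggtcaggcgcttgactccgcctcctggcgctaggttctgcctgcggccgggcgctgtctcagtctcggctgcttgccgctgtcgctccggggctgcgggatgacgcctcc
Sema3c had the CAGATG E-box, Nrp2 had the T-box core on the opposite strand, Sema4g and Sema7a each had the CAGCTG E-box, and all 5 had GC boxes, from 2 in Sema7a to 5 in Sema5a and Nrp2. The table gave 37 starts for 26 of the 31 genes. Of these 37 promoters, 2 held CAGATG, 6 CAGCTG, 3 TCACACC and 27 GGGCGG, while the shares among all 32851 promoters in the table were 17.2%, 16.3%, 3.98% and 35.7%. The promoters of the set had a median of 15 CpG dinucleotides against 7 for all promoters. These are matches of letters in a fixed window and say nothing about binding in either area.

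The class 5 semaphorins, membrane proteins with thrombospondin repeats that can attract or repel axons depending on their context, stood furthest towards the SVZ. Sema5a had 7695 reads (149.6 CPM) in the SVZ and 56 reads (2.54 CPM) in the cortex, a log2 ratio of 5.88 (5.50 to 6.29), or 58.9-fold. Sema5b had 1641 reads (31.9 CPM) in the SVZ and 43 reads (1.95 CPM) in the cortex, a log2 ratio of 4.03 (3.60 to 4.504). As CPM per kilobase of merged exon, the scale on which genes can be set side by side, Sema5a and Sema5b held places 5 and 10 of the 31 genes in the SVZ and places 26 and 25 in the cortex.

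Class 3, the secreted semaphorins, split into members of both sides. Sema3c, which can attract cortical axons, had 7906 reads (154 CPM) in the SVZ and 211 reads (9.57 CPM) in the cortex, 16.1-fold higher in the SVZ with a log2 ratio of 4.01 (3.81 to 4.21). Sema3a, the prototype axon repellent and also a guide of radially migrating cortical neurons, was high in both areas, at 87.4 CPM (4497 reads) in the SVZ and 57.4 CPM (1265 reads) in the cortex, a log2 ratio of 0.61 (0.52 to 0.70). Sema3f, a repellent that acts through Nrp2, lay on the other side with 39 reads (0.758 CPM) in the SVZ and 127 reads (5.76 CPM) in the cortex, a log2 ratio of -2.93 (-3.48 to -2.40), or -1.94 with a pseudocount of 1 CPM. Sema3e, which can signal through Plxnd1 without a neuropilin, was at 3.52 CPM in the SVZ and 6.98 CPM in the cortex, 1.99-fold higher in the cortex and so just inside the 2-fold limit. The remaining secreted members were barely detected and fell below the minimum. Sema3b had 0 reads in the SVZ and 13 in the cortex, 10.1-fold higher in the cortex when the SVZ is set at a limit of 3 reads. The end of its counting interval nearer to equality was a log2 ratio of -2.83. Sema3d had 46 reads in the SVZ and 0 in the cortex, 6.57-fold higher in the SVZ by the same limit. The end of its interval nearer to equality was 2.36. Sema3g had no read in either library, and its Poisson intervals reached up to 0.0717 CPM in the SVZ and 0.167 CPM in the cortex. Neighbouring genes did not share a direction throughout. On GRCm38, Sema3d (chr5:12383385-12588948), Sema3a (chr5:13125414-13602565), Sema3e (chr5:14025276-14256689) and Sema3c (chr5:17574281-17730268) lie on one stretch of chromosome 5, with Sema3e higher in the cortex and the other 3 higher in the SVZ. Sema3b (chr9:107597674-107609229) and Sema3f (chr9:107681500-107710475) lie close to each other on chromosome 9, and both were higher in the cortex. Of these neighbours, Sema3b and Sema3d were below the minimum. With a pseudocount of 1 CPM their log2 ratios were -0.67 and 0.92.

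The transmembrane class 4 semaphorins were mostly higher in the cortex. All 6 reached the minimum, 5 were higher in the cortex, 3 of them at least 2-fold, and their summed CPM was 30.0 in the SVZ and 71.8 in the cortex. Sema4g, a ligand of plexin B receptors, had 299 reads (5.81 CPM) in the SVZ and 521 reads (23.6 CPM) in the cortex, a log2 ratio of -2.02 (-2.23 to -1.82). Sema4f was at 4.18 CPM (215 reads) in the SVZ and 13.7 CPM (302 reads) in the cortex, a log2 ratio of -1.71 (-1.97 to -1.46), and Sema4a was at 3.15 CPM (162 reads) and 8.75 CPM (193 reads), a log2 ratio of -1.48 (-1.79 to -1.17). Sema4d, the ligand of Plxnb1, was at 8.19 CPM in the SVZ and 15.3 CPM in the cortex, 1.87-fold higher in the cortex. Sema4c, a ligand of Plxnb2, was at 3.73 CPM in the SVZ and 7.44 CPM in the cortex, 1.99-fold higher there. Sema4b was the exception in direction, with 4.92 CPM (253 reads) in the SVZ and 2.95 CPM (65 reads) in the cortex, a log2 ratio of 0.74 (0.34 to 1.16).

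Class 6 members, which bind plexin A receptors directly and can also act as receptors themselves, were divided. Sema6d had 4497 reads (87.4 CPM) in the SVZ and 379 reads (17.2 CPM) in the cortex, a log2 ratio of 2.35 (2.20 to 2.50). Sema6b went the other way and was sparse in the SVZ, with 23 reads (0.447 CPM) there and 98 reads (4.44 CPM) in the cortex, a log2 ratio of -3.31 (-4.04 to -2.65), or -1.91 with a pseudocount of 1 CPM. Sema6c, with 104 reads (2.02 CPM) in the SVZ and 114 reads (5.17 CPM) in the cortex, was 2.56-fold higher in the cortex, but its interval reached a log2 ratio of -0.96 and thus did not lie wholly past 2-fold. Sema6a, a ligand of Plxna2 and Plxna4, was at 17.0 CPM in the SVZ and 25.4 CPM in the cortex, 1.49-fold higher in the cortex. The single class 7 member, Sema7a, which promotes axon growth through integrin receptors, had 60 reads (1.17 CPM) in the SVZ and 116 reads (5.26 CPM) in the cortex, a log2 ratio of -2.17 (-2.65 to -1.71), or -1.53 with that pseudocount.

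**Figure D2:**
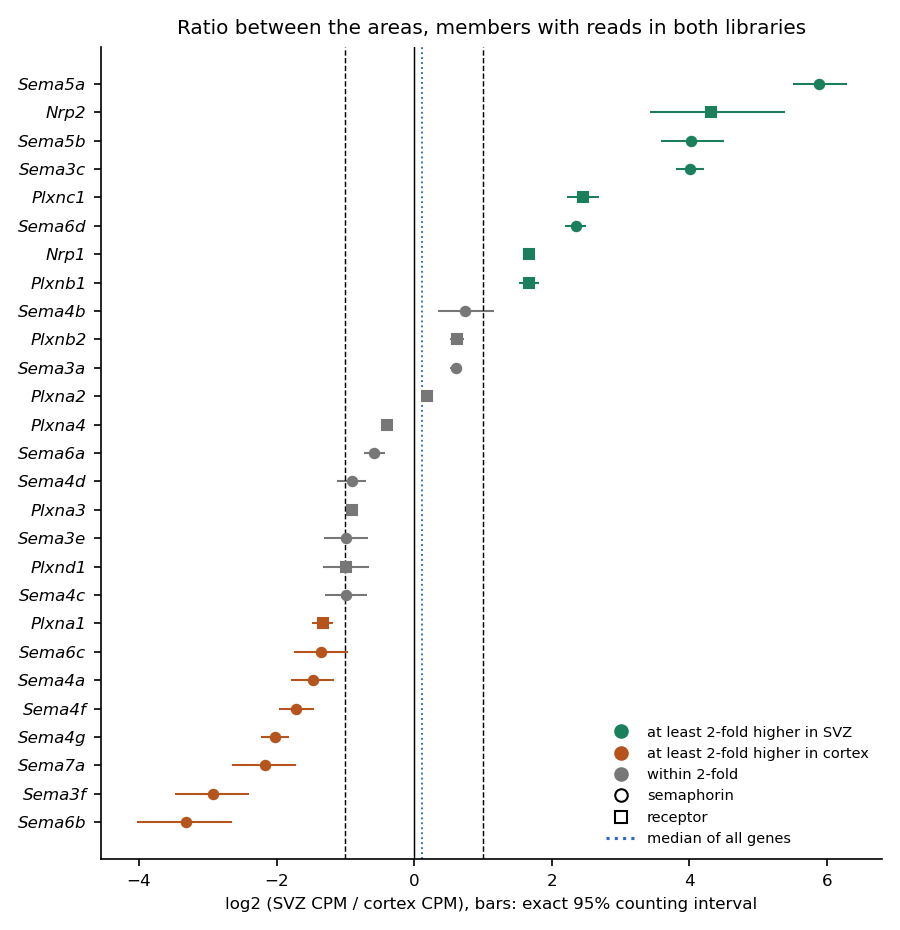
Log2 ratio (SVZ CPM over cortex CPM) for the 27 genes at the 1 CPM minimum, with exact 95% counting intervals; circles are semaphorins, squares are receptors, dashed lines mark 2-fold and the dotted line the median of all genes at 0.11. The 8 genes past 2-fold on the SVZ side run from Plxnb1 at 1.67 to Sema5a at 5.88, and the 8 on the cortex side from Plxna1 at -1.33 to Sema6b at -3.31.

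Both neuropilins were higher in the SVZ. Nrp1, the main receptor subunit for Sema3a, had 25874 reads (503 CPM) in the SVZ and 3490 reads (158 CPM) in the cortex, a log2 ratio of 1.67 (1.62 to 1.72). Nrp2, the subunit that prefers Sema3f and also binds Sema3c, had 467 reads (9.08 CPM) in the SVZ and 10 reads (0.454 CPM) in the cortex, a log2 ratio of 4.32 (3.43 to 5.39), or 2.79 with a pseudocount of 1 CPM. The width of the second interval follows from those 10 reads. Nrp1 remained abundant in the cortex, while Nrp2 was there near the limit of detection.

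Of the plexin A receptors, the partners of neuropilins and of class 6 semaphorins, 3 of 4 lay within 2-fold. Plxna2 was at 511 CPM (26283 reads) in the SVZ and 451 CPM (9941 reads) in the cortex, a log2 ratio of 0.18 (0.15 to 0.21), and Plxna4 was at 129.7 CPM (6670 reads) and 169.9 CPM (3747 reads), a log2 ratio of -0.39 (-0.45 to -0.33). Plxna3 was at 41.6 CPM in the SVZ and 78.1 CPM in the cortex, 1.88-fold higher in the cortex. Plxna1 was the one receptor at least 2-fold higher in the cortex, with 713 reads (13.9 CPM) in the SVZ and 768 reads (34.8 CPM) in the cortex and a log2 ratio of -1.33 (-1.48 to -1.18).

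Among the other plexins, 3 of the 4 at the minimum were higher in the SVZ. Plxnb1, the receptor of Sema4d, had 3297 reads (64.1 CPM) in the SVZ and 445 reads (20.2 CPM) in the cortex, a log2 ratio of 1.67 (1.52 to 1.81). Plxnb2, known for a role in neural progenitors, was at 67.2 CPM in the SVZ and 43.7 CPM in the cortex, 1.54-fold higher in the SVZ. Plxnc1, the plexin that binds Sema7a, had 2115 reads (41.1 CPM) in the SVZ and 166 reads (7.53 CPM) in the cortex, a log2 ratio of 2.45 (2.22 to 2.69). Plxnd1, the Sema3e receptor known from blood vessels, was the exception with 3.29 CPM in the SVZ and 6.53 CPM in the cortex, 1.99-fold higher in the cortex. Plxnb3 had 7 reads in the SVZ and 0 in the cortex, and no fold is given because its SVZ level equalled the 3-read limit of the cortex library. In the GENCODE M21 annotation on GRCm38, exons of Plxna1, Plxna4 and Plxnb1 overlap an antisense gene (Gm26811, Plxna4os3 and Gm7628) and exons of Plxnc1 and Nrp1 overlap Gm48718 and Mir1903 on the same strand. The library keeps no strand, and the sum of the deposited stranded columns differed from the unstranded count by at most 1 read for any of the 31 genes. That comparison cannot tell how reads in the overlaps were counted, because the annotation version behind the counts is not given.

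**Figure D3:**
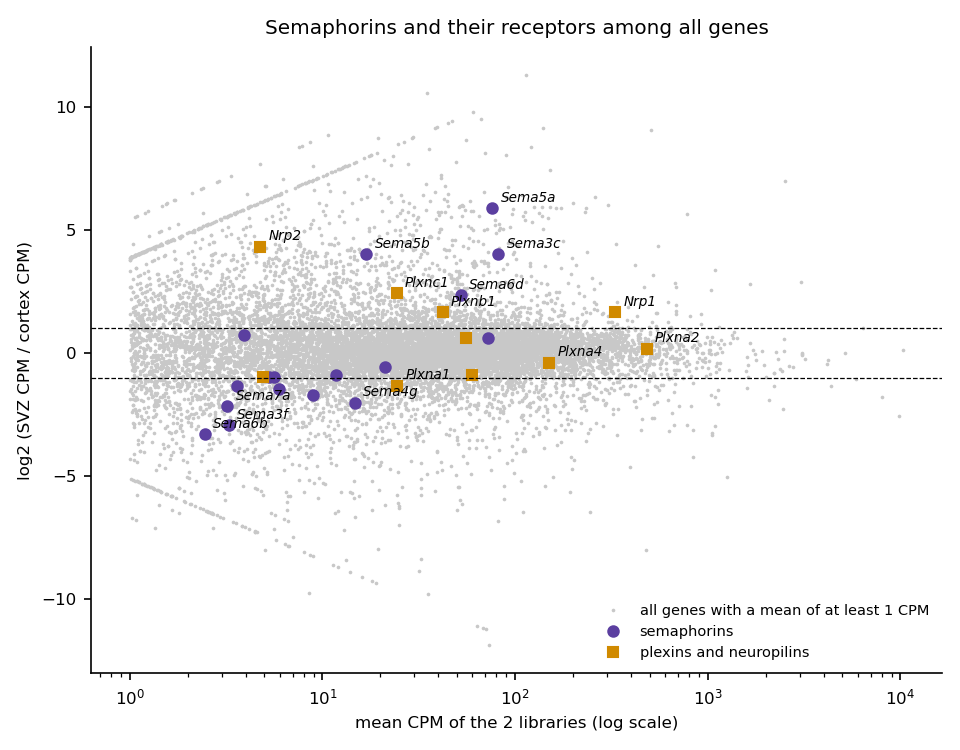
Log2 ratio (SVZ CPM over cortex CPM) against the mean CPM of both libraries (log axis) for the 12738 genes at the 1 CPM minimum (grey), with semaphorins in purple and plexins and neuropilins in ochre; dashed lines mark 2-fold, and the grey diagonal lines are genes without reads in one library, drawn at the 3-read limit. Most cortex-side genes of the set lie at a mean below 10 CPM, whereas Sema3c, Sema5a and Nrp1 lie far to the right above the upper line.

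At a minimum mean of 10 CPM the set held 16 genes, of which 7 were at least 2-fold higher in the SVZ and 2, Plxna1 and Sema4g, in the cortex, and the median log2 ratio turned from -0.58 to 0.62. Among the 9027 genes of the series at that minimum, 14.9% and 12.3% passed 2-fold in these directions. The direction of the median thus rests on whether the 11 genes between 1 and 10 CPM are counted.

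On the scale of CPM per kilobase of merged exon, Nrp1 came first in both libraries, at 139.8 in the SVZ and 44.0 in the cortex, and Plxna2 second, at 46.3 and 40.8. The third place went to Sema3c in the SVZ, at 28.0 CPM per kilobase, and to Plxna4 in the cortex, at 13.2, where Sema3c was number 16 with 1.74. Sema5a was at 13.8 CPM per kilobase in the SVZ and 0.235 in the cortex. Sema3a held place 4 in the SVZ and 5 in the cortex, at 14.04 and 9.21 CPM per kilobase, and was the leading semaphorin of the cortex.

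The mixture of ligand mRNAs differed between the libraries. Within class 3, per kilobase of exon, Sema3c made up 65.3% in the SVZ and 12.7% in the cortex, while Sema3a made up 32.7% and 66.8%. The level of Sema3c was 1.99 times that of Sema3a in the SVZ, and Sema3a was 5.29 times Sema3c in the cortex. Sema3f and Sema3e held 12.0% and 7.39% of class 3 in the cortex and 0.507% and 1.20% in the SVZ. Within class 6, Sema6d took 80.2% in the SVZ and 28.6% in the cortex, where Sema6a led with 42.7%. Over all semaphorins, the 4 genes past 2-fold in the SVZ, Sema3c, Sema5a, Sema6d and Sema5b, had shares of 32.5%, 16.1%, 14.1% and 7.97% there, against 4.23%, 0.570%, 5.81% and 1.02% in the cortex. Sema3a and Sema4b, higher in the SVZ by less than 2-fold, had shares of 16.3% and 1.42% there and 22.4% and 1.78% in the cortex.

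The same genes led each receptor family in both libraries. Plxna2 had 72.5% of the subfamily in the SVZ and 59.1% in the cortex, and 52.8% and 51.0% of all plexins. Plxnb2 led plexin B with 57.9% and 74.0%, Plxnb1 holding 41.9% in the SVZ and 26.0% in the cortex. Nrp1 was nearly the whole of the neuropilins in both, and Nrp2 was 0.622% in the SVZ and 0.0992% in the cortex. Nrp2 has several annotated transcripts of unequal length, and with the longest transcript as the length these 2 shares were 0.956% and 0.153%.

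**Figure D4:**
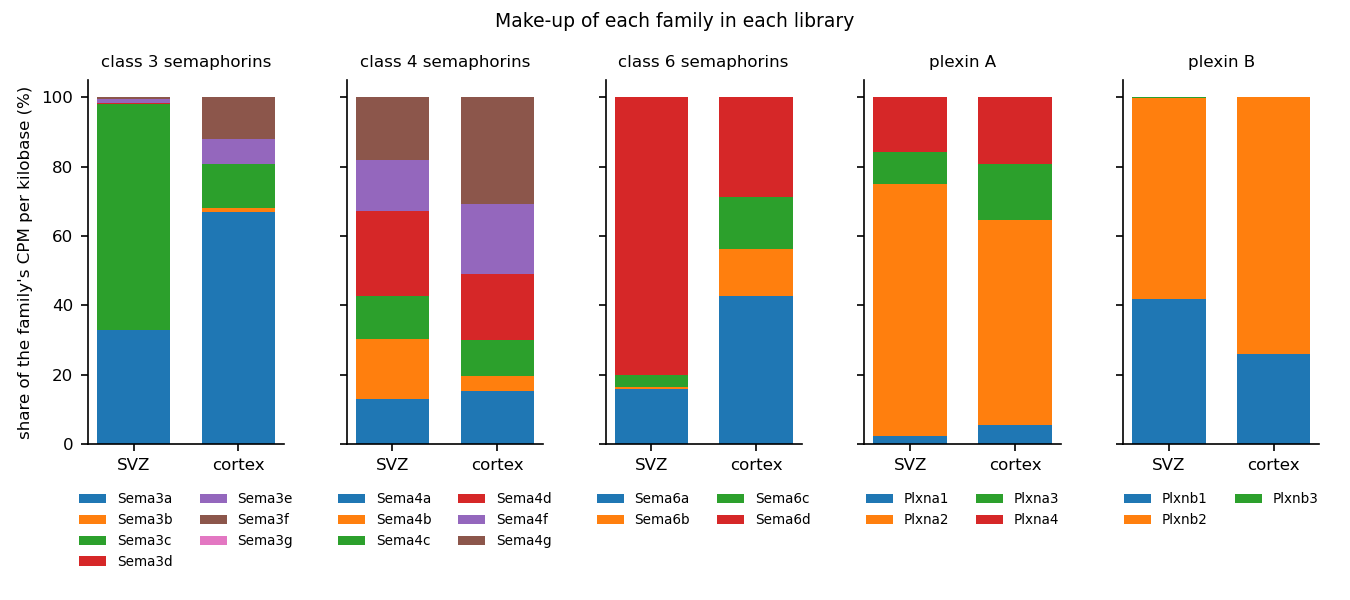
Share of each family's summed CPM per kilobase of exon held by each gene, in percent, in the SVZ library and the cortex library. Sema3c fills 65.3% of class 3 in the SVZ and 12.7% in the cortex, Sema6d takes 80.2% and 28.6% of class 6, and Plxna2 leads plexin A in both areas.

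Known ligand and receptor pairs were then read together. Of 20 pairs listed from general knowledge of the family, 2 had both partners at least 2-fold higher in the SVZ, 0 had both at least 2-fold higher in the cortex, 5 had their partners on opposite sides, and 13 had at least 1 partner within 2-fold. The pairs on the same side were Sema3c with Nrp1 and Sema3c with Nrp2. On opposite sides were Sema3f (log2 ratio -2.93) and its receptor Nrp2 (4.32), Sema7a (-2.17) and Plxnc1 (2.45), and Sema5a, Sema5b and Sema6d (5.88, 4.03 and 2.35), each with Plxna1 (-1.33). Sema3e and Plxnd1, a pair that can act without neuropilins, had nearly equal log2 ratios of -0.99 and -0.99, just under 2-fold. Under the other scalings this pair passed 2-fold on the cortex side, so that 1 pair (TMM, or a total lacking the 10 most counted genes) or 2 pairs (upper quartile, DESeq2) had both partners higher there. Those on opposite sides were then 5 to 8, those with a partner within 2-fold 8 to 12, and the 2 on the SVZ side stayed 2. Pairs share genes, so these counts are not independent of each other.

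Among the other genes of the pathway, more were higher in the cortex than in the SVZ. A list of 46 co-receptors and signalling partners was found in full, and 44 reached 1 CPM: 6 (13.6%) were at least 2-fold higher in the SVZ, 18 (40.9%) at least 2-fold higher in the cortex, and 20 within 2-fold, with a median log2 ratio of -0.68. The shares among all genes were 20.0% and 15.6%, as above. On the cortex side stood the collapsin response mediator proteins, which link Sema3a signalling to microtubules. Dpysl2 (CRMP2) was at 3605 CPM in the SVZ and 12420 CPM in the cortex, a log2 ratio of -1.79 (-1.79 to -1.78), Dpysl3 at 869.5 and 3308 CPM, a log2 ratio of -1.93, and Crmp1 at 437 and 1822 CPM, a log2 ratio of -2.06.

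The adhesion molecules L1cam and Chl1, which associate with Nrp1 in class 3 receptor complexes, were at 22.3 CPM (1148 reads) and 116 CPM (5961 reads) in the SVZ and at 117 CPM (2577 reads) and 567 CPM (12495 reads) in the cortex. Their log2 ratios were -2.39 (-2.49 to -2.29) and -2.29 (-2.33 to -2.25), opposite in direction to that of Nrp1. Mical3, of the MICAL family of actin-oxidising enzymes that bind plexins, was at 18.3 CPM in the SVZ and 64.4 CPM in the cortex (log2 ratio -1.82). Farp1, an exchange factor that binds plexin A (log2 ratio -1.65), the R-Ras relative Rras2 (-1.81) and the Rac effector kinase Pak3 (-1.69) were higher in the cortex as well. Their relatives on the list did not all share this direction. Farp2 (207 and 39 reads, log2 ratio 1.19) and Rras (113 and 17 reads, 1.51) were higher in the SVZ. Mical1 lay within 2-fold (-0.52), and Mical2 was higher in the cortex (-3.15). Rnd2, which is needed for radial migration of cortical neurons, stood on the other side with 4231 reads (82.3 CPM) in the SVZ and 196 reads (8.89 CPM) in the cortex, a log2 ratio of 3.21 (3.00 to 3.42).

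**Figure D5:**
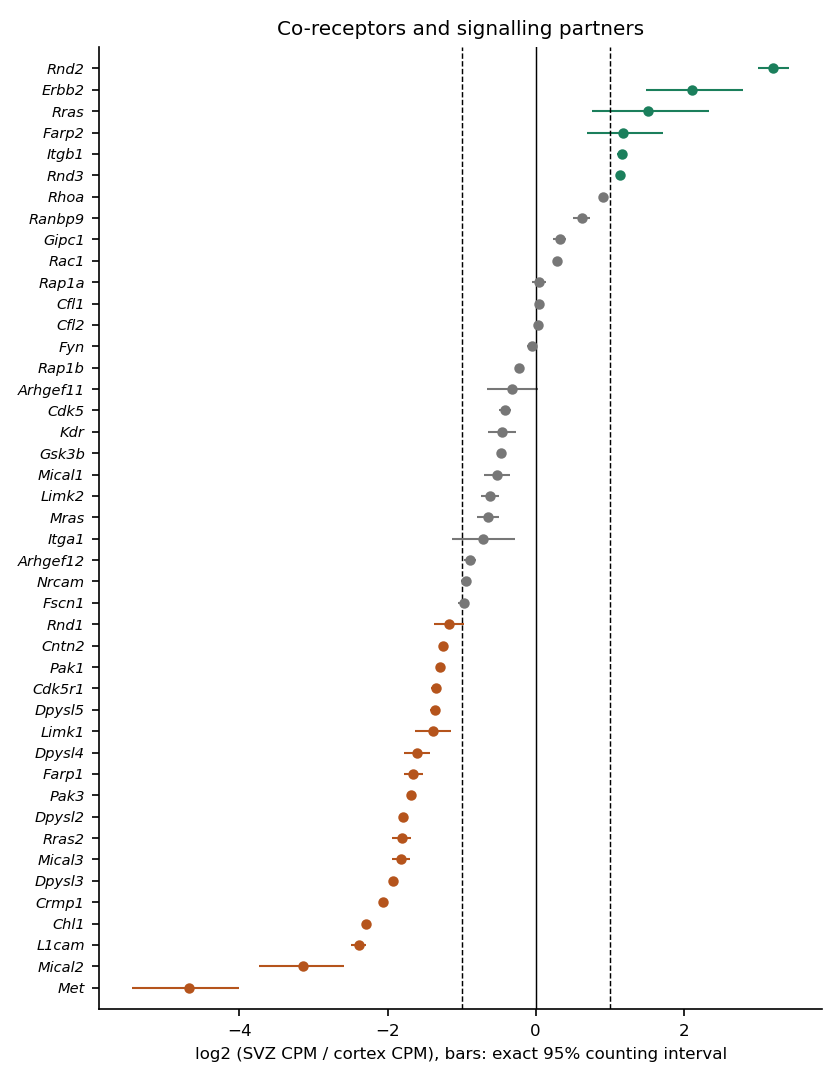
Log2 ratio (SVZ CPM over cortex CPM) for the 44 co-receptors and signalling partners at the 1 CPM minimum, with exact 95% counting intervals; green is at least 2-fold higher in the SVZ, orange at least 2-fold higher in the cortex, grey within 2-fold, and dashed lines mark 2-fold. The 18 orange genes outnumber the 6 green ones, and Rnd2 at 3.21 is the uppermost point.

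Markers of several other cell types moved with the area as well. Proliferation genes summed to 2189 CPM in the SVZ and 128 CPM in the cortex, with 10 of 10 higher in the SVZ, and deep-layer neuron genes to 603 and 2829 CPM, with 8 of 8 higher in the cortex. Microglia genes summed to 79.0 CPM in the SVZ and 9.39 CPM in the cortex, 10 of 10 higher in the SVZ and Trem2 at 0 in the cortex. Blood vessel genes, of which Kdr is also a semaphorin co-receptor, summed to 167 and 127 CPM, 7 of 10 higher in the SVZ. Interneuron genes summed to 154.5 and 514 CPM, with 5 of 8 at the minimum higher in the SVZ. Npy, at 14.3 and 379 CPM, carried that difference, and the other 8 genes of the list summed to 140.3 and 136 CPM. Choroid plexus genes summed to 246 and 0.726 CPM, with Kl at 0 in both libraries and Folr1, Clic6 and Otx2 at 0 in the cortex. Ttr alone made up 240 and 0.726 CPM of these sums. Meninges genes summed to 5.13 and 9.52 CPM (Aldh1a2 at 0 in both and Col1a1 at 0 in the SVZ), oligodendrocyte precursor genes to 12.1 and 12.0 CPM, Cajal-Retzius genes to 3.73 and 30.8 CPM (Lhx5 and Lhx1 at 0 in both), and erythroid genes to 20.4 and 10.9 CPM, with all 4 adult haemoglobin genes of the list at 0 in both. Reln alone made up 2.47 and 27.7 CPM of the Cajal-Retzius sums. The part of these cell types in the semaphorin, plexin and neuropilin ratios was not tested.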

How the data were processed

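LCM followed by RNA-seq was carried out on the SVZ and the cortex of mouse brain at embryonic day 16.5, with 1 library each. The authors removed adapters with cutadapt 4.1, mapped read 1 to mm10 with STAR 2.7.9a and deposited STAR's whole-number counts per gene, unstranded and per strand, not normalized. The sources used here do not give the annotation version or how duplicates were treated. A deposited joint table, which repeats counts and adds the authors' CPM, ratio and log10 ratio, was not used.

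Unstranded counts were scaled here to CPM on the total of gene rows. Reads in genes were 59.0% and 59.1% of all reads, the rest being unmapped, multimapping, ambiguous or outside genes, which stayed out of the totals. The measure was the log2 ratio of SVZ to cortex CPM with an exact 95% interval, at a mean of at least 1 CPM. A count of 0 was set at 3 reads, and the ratio at that limit takes the other count as exact. No test was run, since each area has 1 library. The procedure was run on simulated Poisson counts with known ratios. These hold only the counting error that the intervals assume, so they cannot show the effect of PCR copies or of differences between samples.

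The 31 genes and all lists were chosen with earlier results of these data known. All 31 are named. Of 46 signalling partners the text names the 10 furthest from equality, by the interval end nearer to 0, among those past 2-fold at 10 CPM or more. Farp2, Rras, Mical1 and Mical2, relatives of named genes, were added after the data were seen. Of 13 cell type lists it gives sums, genes at 0 and up to 3 markers. Gene lengths and positions came from GENCODE M21 (GRCm38), the longest-transcript lengths, the pairs under other scalings and the interneuron sum without Npy being added after the data were seen, and promoters from RefSeq (GRCm38.p6), of which 26 of 31 genes matched by symbol. Promoters and motifs were chosen as examples after the values were seen. Alternatives were size factors from DESeq2 1.42.0, scaling by upper quartile or by TMM in edgeR 4.0.16, a total that leaves out the 10 most counted genes, summed stranded counts, thinning of the SVZ library, a pseudocount of 1 CPM, other minimums and a 4-fold threshold. Python 3.11.15, pandas 2.3.3, numpy 2.4.6, scipy 1.17.1, matplotlib 3.10.9 and R 4.3.3 were used.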

Additional observations from a re-analysis of the deposited data

How the results depend on the processing

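No paired analysis was possible because 1 library stands for each area, and no replicate could be left out. The number of semaphorins, plexins and neuropilins past 2-fold in the SVZ, 8, was 8 under every scaling, with summed stranded counts, with thinning and with the pseudocount, and 7, 9 and 6 at a minimum of 10 CPM, with no minimum and at 4-fold. The count of 8 in the cortex was 11 with TMM, 13 with upper-quartile scaling, 12 with DESeq2 size factors, 11 with a total lacking the 10 most counted genes, 10 with thinning, 2 of 16 at 10 CPM and 4 at 4-fold. Under the 4 scalings, in the same order, 17.1%, 17.3%, 17.2% and 16.2% of all genes passed 2-fold in the cortex. Sema3e, Sema4c and Plxnd1, 1.99-fold apart, crossed 2-fold under the first 4 of these, Sema4d and Plxna3 with upper-quartile scaling and Plxna3 also with DESeq2, and Sema4c and Plxnd1 with thinning. At 10 CPM the median log2 ratio reversed in sign to 0.62 over fewer genes, and 3 partners were higher in the SVZ. At 4-fold 2 partners were higher in the SVZ and 5 in the cortex. Scalings shifted every log2 ratio by -0.09 (TMM, DESeq2), -0.10 (upper quartile) or -0.03 (without the most counted genes). For single genes, 184 of 209 recomputed values stayed within their counting interval, 25 moved beyond it (8 with the pseudocount, of which Nrp2, Sema3b, Sema3d, Sema3f, Sema6b and Sema7a came nearer to equality by over 1.5 times) and 0 of the genes at the minimum reversed. The 4 scalings shift all ratios alike, and summed stranded counts differ by at most 1 read, so for these settings the tally mostly reflects the width of each interval. Plxnb3, at the limit of detection, has no direction. Depth limits Sema3b, Sema3d, Sema3g, Plxnb3 and the cortex value of Nrp2, which rests on 10 reads.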
